A study of Homo sapiens with 2 samples.

Results

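The 39 genes described here encode the cargo, the processing enzymes and the fusion machinery of the secretory granule. They were listed by name and taken by gene symbol from the deposited tables, in which all 39 were found among 33694 genes. Both libraries came from eBCs, the enhanced beta clusters grown from human embryonic stem cells, of the iSOX9KO genotype. This line was made from Mel1-INS-GFP cells, which carry GFP at the insulin locus, by inserting a doxycycline-inducible Cas9 and 3 guide RNAs against SOX9 at AAVS1, and the methods say that 1 clone was used. One library was prepared without DOX and the other with DOX at 2 ug/ml from day 12 of differentiation, so that both carried the Cas9 cassette. Each condition was 1 library, so the drug cannot be told apart from differences between cultures and library preparations. According to the methods the clusters were formed again from living cells that had been sorted on high GFP, so every class below had passed a sort on the insulin reporter.

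Endocrine cells store hormone in dense-core granules. Granins help the cargo to condense, prohormone convertases and carboxypeptidase E cut and trim the precursors, and a rise in calcium is sensed by synaptotagmins and related proteins. Vesicle SNAREs then pair with SNAREs of the plasma membrane, RAB proteins and their effectors having brought the granule to its docking site and priming factors having made it ready to fuse. Chromogranin A is used as a general marker of neuroendocrine cells, and the order in which this machinery is acquired is part of how islet cells mature.

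Several genes of regulated secretion are known targets of CREB, which binds the cyclic AMP response element TGACGTCA. RefSeq promoter windows (GRCh38.p14, from 250 bases before to 50 bases after a start site) were found for 30 of the 39 genes, and those of CHGA, VGF and PCSK1 held this palindrome, which reads the same on both strands. Over all 35116 windows 1.85% held it, or 2.25% of 27305 genes. The 3 windows are shown because these genes, a granin, a granin-like peptide precursor and a prohormone convertase, had different orders over the cell classes below. The CHGA window is chr14:92922900-92923199 on the plus strand with the motif from base -54 relative to the start. That of VGF is chr7:101165520-101165819 on the minus strand with the motif from -79, and that of PCSK1 is chr5:96433199-96433498 on the minus strand with the motif from -77. Capitals mark the motif, and each sequence reads 5′ to 3′.
CHGA: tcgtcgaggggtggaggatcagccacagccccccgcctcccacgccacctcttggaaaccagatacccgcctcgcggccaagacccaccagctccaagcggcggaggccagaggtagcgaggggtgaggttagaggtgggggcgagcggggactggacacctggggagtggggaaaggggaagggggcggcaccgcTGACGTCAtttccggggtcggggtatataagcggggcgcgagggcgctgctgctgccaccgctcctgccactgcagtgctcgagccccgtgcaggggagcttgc
VGF: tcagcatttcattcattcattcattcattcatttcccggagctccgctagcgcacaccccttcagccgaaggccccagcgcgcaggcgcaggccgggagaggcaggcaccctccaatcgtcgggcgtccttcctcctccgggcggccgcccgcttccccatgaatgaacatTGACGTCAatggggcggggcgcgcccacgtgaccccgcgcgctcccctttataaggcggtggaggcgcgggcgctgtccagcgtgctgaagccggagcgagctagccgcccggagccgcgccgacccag
PCSK1: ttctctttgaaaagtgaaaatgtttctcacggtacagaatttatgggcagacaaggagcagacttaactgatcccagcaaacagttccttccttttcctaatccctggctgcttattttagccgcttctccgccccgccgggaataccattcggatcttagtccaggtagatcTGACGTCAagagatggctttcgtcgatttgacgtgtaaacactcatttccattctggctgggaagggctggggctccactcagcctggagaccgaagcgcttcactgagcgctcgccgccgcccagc

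Each condition was sequenced as 1 library, so there was no spread between replicates and no test was run. Values in parentheses are 95% intervals, which take in counting error alone. The libraries held 30288 and 31817 barcodes with medians of 15991 and 14431 UMIs (unique molecular identifiers), and 21808 and 23118 cells were kept with at least 1000 UMIs and after removal of doublets. There were 369 barcode sequences in both libraries, borne by 403 of the 44926 cells kept. SOX9, the target of the guides, had 3.0 CPM (2.81 to 3.19) without DOX and 3.78 CPM (3.56 to 4.0) with DOX over all cells. It thus was not lower with DOX in this sum. In the same order, the classes named below had 253 and 282 CPM (duct-like), 3.0 and 3.53 (beta cell progenitor-like), 0.350 and 0.757 (proliferating progenitor-like) and 0.252 and 0.253 (alpha-like). Lower with DOX were delta-like cells, at 1.29 and 1.08 CPM, and beta-like cells, at 0.289 and 0.218 CPM. RNA does not measure the protein, for which the paper reports a knockdown by western blot. Directions between the libraries are therefore given by the libraries' labels only. Clusters were built without the 39 genes and named from fixed markers: beta-like (16912 cells), beta cell progenitor-like (10615), delta-like (4563), alpha-like (9167), proliferating progenitor-like (977) and duct-like (332), leaving 2360 cells of high mitochondrial content without a name. Lists of 6 to 8 markers of mesenchymal, acinar, endothelial, immune and pluripotent cells summed to 1.06 to 65.9 CPM in the endocrine classes, and 6 markers of neurons and Schwann cells to 6.25 to 152 CPM. INS stood at 194939 and 194002 CPM in beta-like cells and at 119506 to 148877 CPM in alpha-like and delta-like cells, so the names follow the leading markers and not INS alone. The beta-like class took 32.2% of cells without DOX and 42.8% with DOX. Alpha-like cells took 23.2% and 17.8%, delta-like cells 12.1% and 8.37% and beta cell progenitor-like cells 24.3% and 23.0%. The paper reports more alpha-like and delta-like cells and beta cell progenitors with DOX in its single-cell data. By label, the alpha-like and delta-like shares here went the opposite way, and the progenitor-like share was nearly level. By flow cytometry the paper saw no rise in glucagon cells with DOX, and it calls statistics on such shares difficult because replicates were limited.

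The level of a gene was its UMI count over all cells of a class, given per 1e+06 UMIs of the same class (CPM). Pairs of values are always given for the library labelled no DOX first and for that labelled DOX second. They are compared between classes for 1 gene at a time, while sums over genes are shares of UMIs. Of the 39 genes, 36 had the same highest endocrine class in both libraries. Of these, 26 peaked in beta cell progenitor-like cells, 4 in alpha-like cells, 3 in beta-like cells and 3 in delta-like cells. The share of all genes that peaked in each class is not given. By the rule described below, 47.9% of all genes tested were lower and 5.87% higher in beta-like than in progenitor-like cells. The count of 26 is therefore not read as a trait of these genes. The summed neuron and Schwann markers were also highest among the endocrine classes in progenitor-like cells, with 111 and 152 CPM beside 66.1 and 65.0 CPM in beta-like, 6.25 and 8.0 CPM in alpha-like and at least 14.9 CPM in delta-like cells, and their part in the result was not tested. The duct-like class was the lowest of 6 classes in both libraries for 31 genes, and the share of all genes is likewise not given. SCG3, SV2B and BAIAP3 were the genes whose highest endocrine class differed between the libraries.

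**Figure D1:**
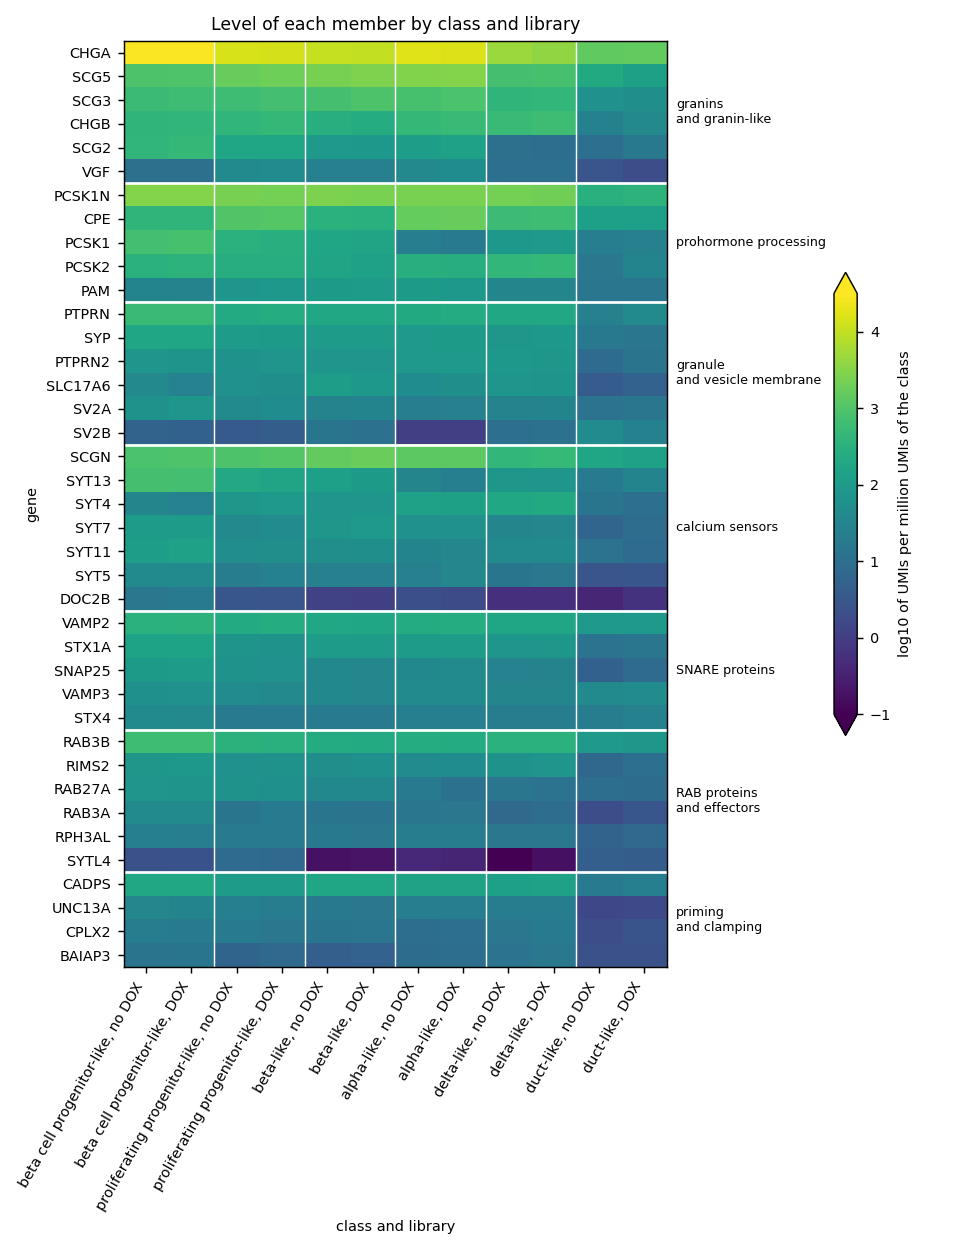
Levels of the 39 genes (rows, grouped by role) in 6 classes of cells and both libraries (columns), as the log10 of CPM. CHGA is the brightest row in every class, and the duct-like columns are the darkest for 31 genes.

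Genes of the same role spread differently over the endocrine classes. SCG2 had a wide range, its highest class holding 38.6-fold and 47.6-fold the CPM of its lowest, and PCSK1 followed with 32.3-fold and 39.4-fold. PCSK1N and PTPRN2 were among the most even, with 1.31-fold for both genes in the library without DOX and 1.45-fold and 1.39-fold in the other. PCSK1N had 2959 and 3002 CPM in progenitor-like, 2554 and 2454 CPM in beta-like, 2435 and 2489.7 CPM in alpha-like and 2252 and 2077 CPM in delta-like cells. PTPRN2, the islet antigen phogrin, had 68.9 to 95.7 CPM in these classes and 8.28 and 12.8 CPM in duct-like cells. The even genes thus include a convertase inhibitor and a granule membrane protein, while the uneven ones include a granin and the convertase itself.

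The fusion machinery was present in all endocrine classes. VAMP2 had 173 to 345 CPM over the endocrine classes, STX1A 78.9 to 158 CPM and SNAP25 28.0 to 111 CPM, all 3 with their highest values in progenitor-like cells. CADPS had 127 to 196 CPM and RIMS2 46.1 to 84.8 CPM. RAB3B, at 231 to 617 CPM, was the RAB gene with the highest level, and RAB3A, its relative on synaptic vesicles, had 8.12 to 41.5 CPM. SV2A at 22.8 to 76.0 CPM, SYT11 at 30.0 to 144 CPM and SYT5 at 13.4 to 42.8 CPM also peaked in progenitor-like cells. The complexin CPLX2, which clamps the SNARE complex, stayed between 9.67 and 21.6 CPM, and the RAB effector RPH3AL did not pass 23.3 CPM.

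Proliferating progenitor-like cells carried the machinery too. CHGA stood at 15026 and 13690.4 CPM, PCSK1 at 333 and 299.6 CPM and CPE at 993 and 1143 CPM in these cells. CHGA and PCSK1 therefore lay below the beta cell progenitor-like and above the beta-like level, and CPE below the alpha-like and above the beta-like level.

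As a whole, the 39 genes took 4.08% and 4.10% of the UMIs of beta cell progenitor-like cells, 2.92% and 2.85% of those of alpha-like cells and 2.07% in either library of those of beta-like cells. Delta-like cells gave 1.2% and 1.13%, and duct-like cells 0.291% and 0.296%. The order over the endocrine classes was the same in both libraries. Much of it came from CHGA, which held 72.2% and 71.5% of these UMIs in progenitor-like cells against 50.7% and 48.4% in beta-like cells. The other 38 genes together took 1.13% and 1.17% of the UMIs of progenitor-like cells, 1.02% and 1.07% in beta-like cells and 1.18% and 1.23% in alpha-like cells. Delta-like cells gave 0.733% and 0.749%, but this order depended on the total. Out of UMIs other than those of hormone genes, a total chosen after the data were seen, the share was 1.17% and 1.15% in delta-like, 1.23% and 1.26% in progenitor-like, 1.32% and 1.38% in beta-like and 1.58% in either library in alpha-like cells. Hormone genes, here and below, were INS, GCG, SST, PPY, GHRL, IAPP, PYY, GAST, TAC1 and CRH, and TTR, a plasma carrier, was counted with them.

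**Figure D2:**
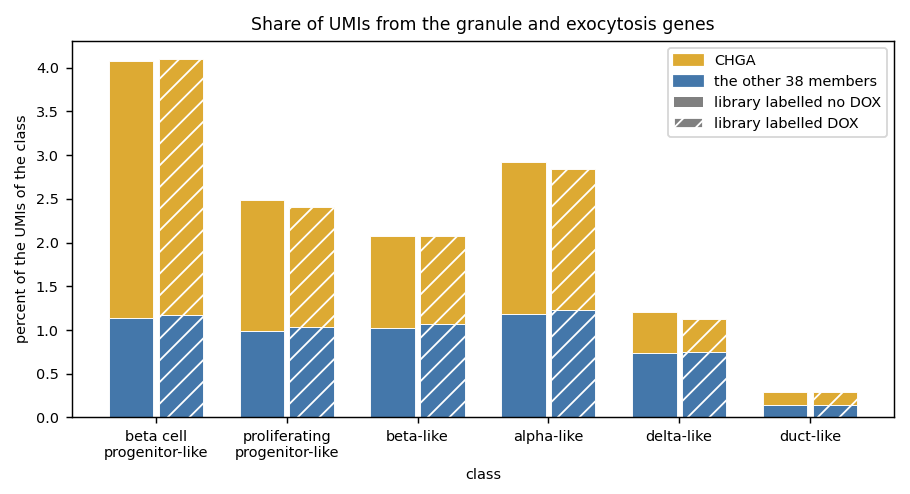
Percent of the UMIs of each class (x axis) that came from CHGA (yellow) and from the other 38 genes (blue), with a plain bar for the library labelled no DOX and a hatched bar for that labelled DOX. The blue part is similar in progenitor-like, beta-like and alpha-like cells, between 1.02% and 1.23%, while the yellow part is tallest in beta cell progenitor-like cells.

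The endocrine classes were first compared with duct-like cells, to see whether the list marks endocrine cells in these data. A gene was called when it differed at least 1.5-fold in the same direction in both libraries and had at least 5 CPM in one of the classes compared. The minimum left out DOC2B and SYTL4. It could be met by the endocrine side alone, and a gene that passed so could be called higher but not lower. UNC13A, VGF, SYT5, RAB3A, CPLX2 and BAIAP3 were among these. None of them passed 2.95 CPM in the duct-like cluster of the finer clustering, in which UNC13A had 1.57 and 1.64 CPM. SLC17A6, at 3.92 and 5.24 CPM in that cluster, also met the minimum by the endocrine side alone and could only be called higher. The same limit applied in every comparison: a gene that met the minimum on a single side could only be called higher on that side. Of the 37 genes tested, 34 were higher and 1 was lower in the endocrine classes, beside 22.2% of all genes tested called higher and 27% called lower. The median log2 ratio of the 37 genes was 2.96, and that of all genes tested -0.09. SLC17A6, a vesicular glutamate transporter, UNC13A, which primes vesicles for fusion, and the granins SCG3 and SCG5 had the highest called ratios, from 3.61 to 3.96 on the log2 scale. The granins and granin-like genes lay close together, from 10.2-fold for CHGA and VGF to 12.7-fold for SCG3.

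Of 73 tested genes of the wider list of exocytosis genes, 38 were higher and 9 lower, beside 22.2% and 27% of all genes, with a median of 0.71. SYNGR3, CPLX1 and RAB26 had the highest called ratios, at 3.61, 3.45 and 3.36. EXPH5, which encodes a RAB27 effector, had 71.6 CPM in duct-like and 0.812 CPM in endocrine cells, and SYNPR at -5.35 and CADPS2 at -2.49 were also low.

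Duct cells are not known for dense-core granules, so the duct-like values were used as a reference level, on the assumption that these cells lack the genes. CHGA stood there at 1441 and 1509 CPM, and INS at 19585 and 14962 CPM. The class was mixed, with acinar markers summing to 146 and 500.1 CPM, neuron and Schwann markers to 209 and 88.4 CPM and proliferating progenitor markers to 1763 and 2000.3 CPM. After thinning each cell to 5000 UMIs, SCG2 was seen in 4.08% (1.51 to 8.67) and 5.08% (2.35 to 9.43) of duct-like cells against 23.5% (22.5 to 24.5) and 23.4% (22.5 to 24.2) of beta-like cells. The unthinned shares of SCG2 were 9.80% and 10.6% against 44.7% and 41.3%, at median depths of 14225 and 14647 UMIs in duct-like and 17983.5 and 14746.5 UMIs in beta-like cells. The part of free RNA, of other cell types and of undetected doublets in the duct-like levels was not tested. When doublets were kept, the duct-like cluster grew to 641 cells, the log2 ratio of CHGA fell from 3.34 to 1.25, and 27 of the genes were called higher. The share of all genes called higher in that setting is not given, so this count is not read against a background.

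A few genes did not follow the endocrine pattern. SV2B, a synaptic vesicle glycoprotein, was highest in duct-like cells at 45.3 and 26.5 CPM, with 13.9 and 11.3 CPM in beta-like cells and 1.08 and 1.13 CPM in alpha-like cells. It was the gene called lower, with a log2 ratio of -2.04 (-2.25 to -1.83). VAMP3 and STX4, SNAREs found in most cell types, were at the duct-like level, with log2 ratios of -0.02 (-0.21 to 0.17) and 0.02 (-0.23 to 0.28). SYTL4, which encodes the granule docking protein granuphilin, was rare everywhere and highest in proliferating progenitor-like cells at 8.51 and 7.69 CPM, while beta-like cells held 0.175 and 0.192 CPM.

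Beta-like cells were compared with beta cell progenitor-like cells, whose leading genes were NTRK3, TAC1, NPY1R, MGLL and TPH1. The name of that class rests on the fixed markers, and no order in time between the classes was measured. The machinery divided, in that CHGA, SCG2, PCSK1, SYT13, SNAP25 and DOC2B were lower in beta-like cells, while SCG5, VGF, PAM, SYT4, SLC17A6, SCGN and SV2B were higher. The SV2B call was lost with a minimum of 2000 UMIs per cell, its log2 ratio going from 1.22 to 0.39. Of 38 genes tested, 7 were called higher and 20 lower, beside 5.87% of all genes tested called higher and 47.9% called lower. Most genes were lower in CPM in beta-like cells. Hormone transcripts took 22.7% and 22.3% of the UMIs of these cells against 8.06% and 6.70%, and their part in the shift was not tested. The median log2 ratio was -0.59 over all genes and -0.71 over the members, so that the share of members called lower, 52.6%, was near the background and that called higher, 18.4%, was above it. Relative to the median of all genes, 9 of the 38 members were called higher and 13 lower, beside 17.1% and 16.7% of all genes. Both shares of members were above those of all genes on that scale, so the reading of the lower share depended on the scale. PTPRN2 and SCG3 joined the higher ones. PCSK2, SYT5, VAMP2, VAMP3, RAB27A, UNC13A and SYP were no longer called on that scale.

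Among the cargo genes, CHGA (chromosome 14, 92923150 to 92935285, GENCODE 44) had 29466 and 29327 CPM in progenitor-like cells and 10499.6 and 10027 CPM in beta-like cells. Its log2 ratio was -1.49 without DOX and -1.55 with DOX. SCG2, which encodes secretogranin II (chromosome 2, 223596940 to 223602361), had 419 and 466 CPM in progenitor-like cells, 96.1 and 85.4 CPM in beta-like cells and only 10.9 and 9.78 CPM in delta-like cells. This was the duct-like level of 10.3 CPM in the library without DOX and below the duct-like level of 16.7 CPM in the other. SCG5, whose product 7B2 is the chaperone of the PCSK2 enzyme, went the other way with 938 and 957 CPM in progenitor-like cells and 2385 and 2716 CPM in beta-like cells. SCG3 differed less, with 558 and 623 against 764 and 900 CPM, and was called only relative to the median of all genes. VGF, the precursor of several secreted peptides, had 10.5 and 10.7 CPM in progenitor-like cells and 24.3 CPM in beta-like cells of either library. CHGB had 391 and 409 CPM against 284 and 250.5 CPM, a log2 ratio of -0.46 in one library and -0.71 in the other that did not pass the rule in both. Of the 6 granins, 2 genes were called higher, 2 lower and 2 were not called, beside 5.87% of all genes called higher and 47.9% called lower.

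The processing enzymes were divided as well. PCSK1, the convertase that makes the first cuts in proinsulin (chromosome 5, 96390333 to 96434143), had 719 (712 to 725) and 775 (768 to 782) CPM in progenitor-like cells and 172 (170 to 174) and 159 (157 to 161) CPM in beta-like cells. After thinning it was seen in 87.5% and 88.9% of progenitor-like cells and in 47.2% and 46.9% of beta-like cells, with 6.12% and 7.34% of duct-like cells as the reference. At 2500 UMIs per cell these shares were 73.9% and 75.8% in progenitor-like and 29.9% and 29.5% in beta-like cells. PCSK2 was also lower in beta-like cells, with 162 and 143 CPM against 328 and 354 CPM, but its ratio relative to the median of all genes was not called. PAM, which amidates peptide ends, was the called member with the highest ratio at 1.79 (1.75 to 1.84), with 99.5 and 106 CPM against 30.2 and 29.0 CPM. CPE and PCSK1N, the latter an inhibitor of PCSK1, were not called, with log2 ratios of -0.31 (-0.33 to -0.30) and -0.25 that became 0.28 and 0.34 relative to the median of all genes.

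A group of 7 genes held the synaptotagmins, DOC2B and SCGN, not all of which are calcium sensors. Of these, 4 were lower and 2 higher, beside the 47.9% and 5.87% of all genes. SYT5 was no longer among the lower ones relative to the median of all genes. SYT13 (chromosome 11, 45240302 to 45286341), an atypical synaptotagmin, had 742 and 719 CPM in progenitor-like cells against 127 and 99.7 CPM in beta-like cells. DOC2B, a sensor with paired C2 domains, had the lowest called ratio at -3.93 (-4.10 to -3.76), with 1.15 and 1.11 CPM against 15.4 and 19.5 CPM. DOC2B met the minimum by the progenitor-like side alone and could only be called lower. SYT13 and DOC2B were both highest in progenitor-like cells. SYT13 remained above its duct-like level of 17.7 and 29.8 CPM in beta-like cells, and in duct-like cells DOC2B had 1 and 2 UMIs in all. SYT4 and SCGN were higher in beta-like cells, SYT4 with 74.2 and 76.1 against 32.9 and 26.9 CPM. SCGN, a calcium-binding protein of islet cells, had 1503 and 1749 CPM against 870.2 and 963 CPM and was highest in beta-like cells in both libraries. SYT7, known as a calcium sensor of insulin release, was not called, with 83.3 and 87.8 CPM against 109 and 112 CPM.

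Among 5 SNAREs, 5 RAB proteins and effectors tested and 4 priming and clamping genes, none was called higher in beta-like cells. In the same order 4, 3 and 2 were called lower, beside 5.87% of all genes called higher and 47.9% called lower. Relative to the median of all genes, STX4, SNAP25, RAB3A, RAB3B and BAIAP3 were still called lower and none was called higher. On that scale 17.1% of all genes were higher and 16.7% lower, and with so few genes no excess is read from these counts. SNAP25 had 102 and 111 CPM in progenitor-like cells against 36.8 and 34.7 CPM, and VAMP2, the vesicle SNARE, 332 and 345 CPM against 192 and 184 CPM. STX1A had 158 and 155 CPM against 104 and 106 CPM, a log2 ratio of -0.57 (-0.60 to -0.55) that was close to the median of all genes and was not called. RAB3B, a GTPase of secretory vesicles, had 617 and 615 CPM against 243 and 231 CPM. RIMS2, which links RAB3 to the release site, had 83.5 and 84.8 CPM against 52.1 and 58.9 CPM. CADPS, which primes dense-core granules, differed little, with 196 and 188 CPM against 172 and 182 CPM, a log2 ratio of -0.12 (-0.14 to -0.09), and UNC13A had 34.9 and 30.8 against 16.6 and 14.9 CPM. In the granule membrane, PTPRN, the islet antigen IA-2, had 503 and 509 CPM against 192 and 191 CPM, and SYP 178 and 179 CPM against 104 and 110.2 CPM. SLC17A6 had 39.5 and 27.7 CPM in progenitor-like cells and 116 and 83.8 CPM in beta-like cells, its highest class.

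Other genes of exocytosis, a list of 109 of which 71 were tested, had none called higher and 44 called lower in beta-like cells, beside 5.87% and 47.9% of all genes, with a median of -0.87 against -0.59 over all genes. SYT6, SYT2 and SYN2 had the lowest called ratios, with SYT6 at 1.18 against 62.8 CPM. SYT6 met the minimum by the progenitor-like side alone and could only be called lower. Relative to the median of all genes 3 were higher and 21 lower, beside 17.1% and 16.7% of all genes.

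**Figure D3:**
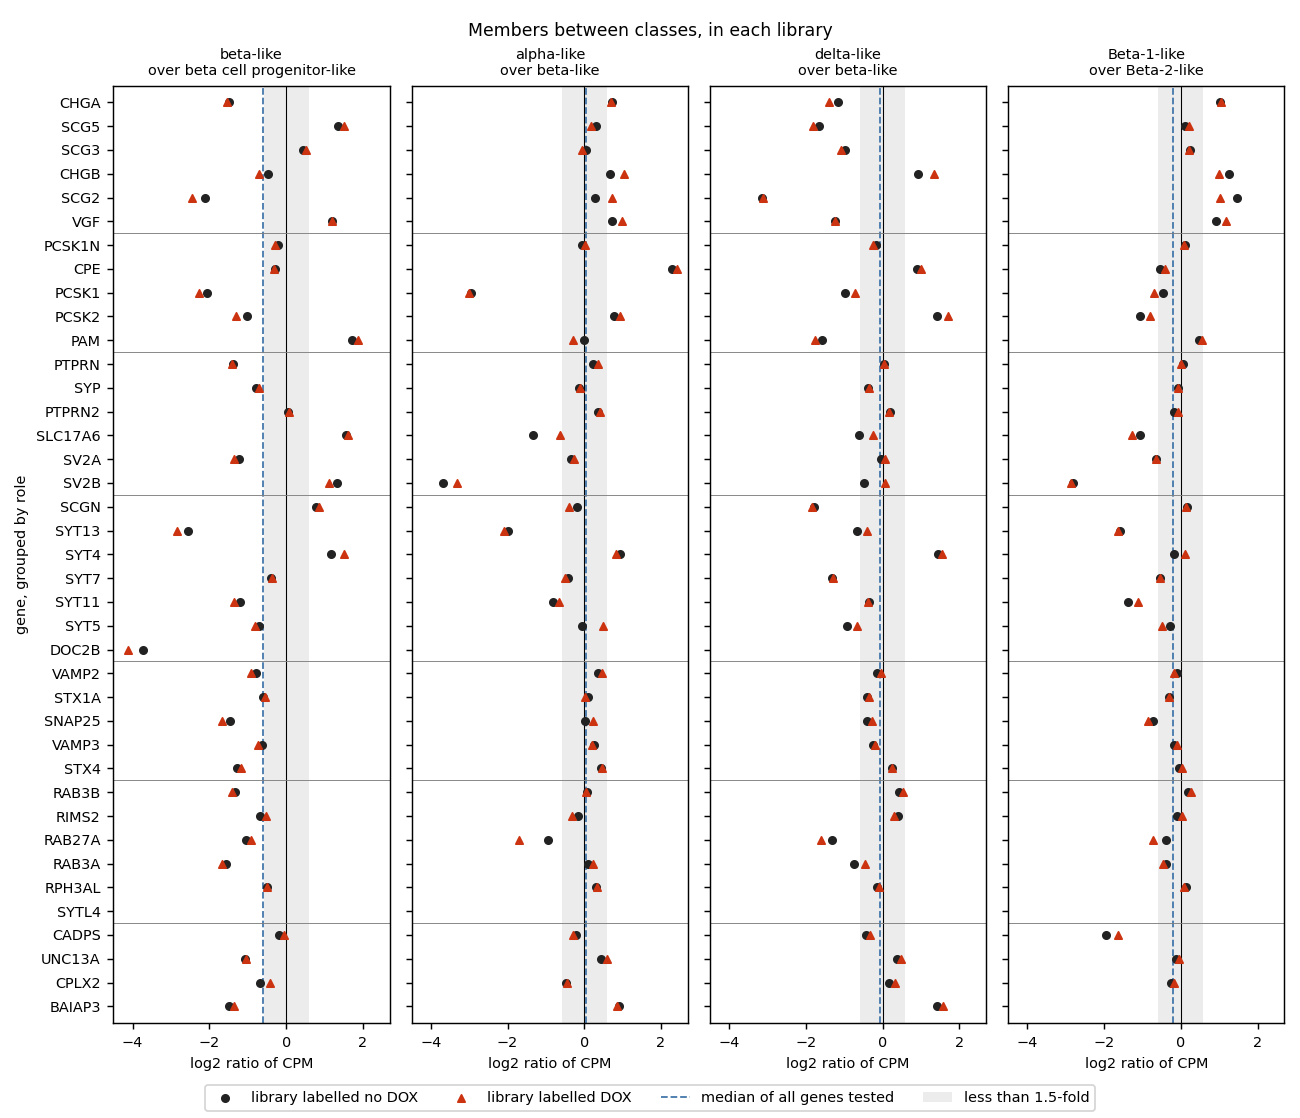
Log2 ratio of CPM (x axis) of each gene (y axis, grouped by role) for the comparisons between classes, with circles for the library labelled no DOX and triangles for that labelled DOX. Grey marks less than 1.5-fold, the dashed line is the median of all genes tested, and genes under 5 CPM in both groups are not drawn. DOC2B is the leftmost gene of the first panel, in which the dashed line is near -0.59.

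Alpha-like and beta-like cells were compared to see which granule genes differ between endocrine fates. Alpha-like cells had more CPE, PCSK2, SYT4, CHGA, CHGB, VGF and BAIAP3, and less PCSK1, SYT13, SV2B, RAB27A, SLC17A6 and SYT11. These 7 and 6 genes of 37 tested stand beside 11.3% of all genes called higher and 9.19% called lower. The median of the members was 0.12 and that of all genes 0.04. CPE had 1572 and 1661 CPM in alpha-like cells and 323 and 313 CPM in beta-like cells, a log2 ratio of 2.34 (2.33 to 2.35). PCSK1 was at 22.3 and 19.7 CPM in alpha-like cells, which is the level of duct-like cells at 22.1 and 25.2 CPM, and its log2 ratio was -2.97 (-3.03 to -2.91). PCSK2, the convertase that alpha cells use to make glucagon, had 276 and 273 CPM against 162 and 143 CPM. The enzymes thus differed in opposite directions between these classes. CHGB had 454 and 513 CPM against 284 and 250.5 CPM, and SCG2 116 and 141 CPM against 96.1 and 85.4 CPM. SV2B had the lowest called ratio, -3.50 (-3.77 to -3.25), which became -2.59 with a minimum of 2000 UMIs and -2.17 with doublets kept. SV2B met the minimum of 5 CPM by the beta-like side alone and could only be called lower in alpha-like cells. SYT13 was also near the duct-like level in alpha-like cells, at 31.9 and 23.3 CPM beside 17.7 and 29.8 CPM.

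No SNARE gene was called between alpha-like and beta-like cells, and among the granins SCG3 was level, with 787 and 869 CPM beside 764 and 900 CPM. VAMP2 had 244 and 251 CPM in alpha-like cells, STX1A 112 and 107 CPM and SNAP25 37.2 and 40.5 CPM, all within 1.5-fold of beta-like cells. RAB27A, which docks granules at the membrane, had 19.0 and 11.5 CPM in alpha-like cells, 36.3 and 37.2 CPM in beta-like cells and 9.86 and 8.84 CPM in duct-like cells. In the wider list 11 of 71 genes were higher and 7 lower, beside 11.3% and 9.19% of all genes, among them the convertase PCSK5 with 20.8 CPM in alpha-like against 0.344 CPM in beta-like cells, SYT6 and RAB37 higher, and RIMS4, SLC17A8 and SYTL1 lower. PCSK5 met the minimum by the alpha-like side alone and could only be called higher. With a minimum of 2000 UMIs per cell, when a cluster of 4656 cells took no name and left the beta-like class at 12002 cells, 4 members were called higher and 4 lower. The share of all genes called in that setting is not given, so these counts are not read against a background.

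Delta-like cells had the lowest levels among the endocrine classes of CHGA, SCG2, SCG3 and SCG5. Of 37 genes tested, 5 were called higher and 11 lower than in beta-like cells, beside 9.58% and 13% of all genes. The median of the members was -0.34, and that of all genes -0.06. Of the 6 granins and granin-like genes, 5 were lower and CHGB was higher. CHGA had 4674 and 3813 CPM in delta-like cells, SCG5 756 and 777 CPM and SCGN 437 and 485 CPM, each the lowest of the endocrine classes. SCG2 had the lowest called ratio at -3.11 (-3.23 to -3.00), followed by SCGN at -1.84 (-1.86 to -1.82), SCG5 at -1.75 and PAM at -1.66. CHGB went against the other granins, with 535 and 632 CPM in delta-like cells, its highest class.

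Also higher were PCSK2, SYT4, BAIAP3 and CPE. PCSK2 reached 433 and 469 CPM there, a log2 ratio of 1.56 (1.54 to 1.58), and was highest there in both libraries. SYT4 had 203 and 221 CPM, which is 6.17-fold and 8.20-fold the level of progenitor-like cells. BAIAP3, a MUNC13-like protein of dense-core granules, had 12.5 and 16.1 CPM against 4.66 and 5.43 CPM in beta-like cells. CPE had 599.7 and 622 CPM, between the alpha-like and beta-like levels. None of the membrane or SNARE genes was called. When hormone, mitochondrially encoded and metallothionein genes were left out of the total, 7 members were higher and 9 lower. The share of all genes called under that total is not given, so these counts are not read against a background. Hormone genes took 37.4% and 34.9% of the UMIs of delta-like cells, and their part in the counts was not tested. In the wider list 5 of 69 genes were higher, led by CADPS2, EXOC6 and STXBP5L, and 6 were lower, led by SLC17A8, SYTL1 and GOLM1, beside 9.58% and 13% of all genes.

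When all cells were clustered at a finer resolution, clusters of 3649 and 2483 cells were named Beta-1-like and one of 4153 cells Beta-2-like, while a cluster of 6741 cells led by IAPP took no name. CHGA, CHGB, SCG2 and VGF were higher in Beta-1-like cells, and 8 genes led by SV2B, CADPS and SYT13 were lower. For SCG2 and VGF this held in the cluster of 3649 cells, while that of 2483 cells had SCG2 at 70.2 and 56.1 CPM beside 55.2 and 59.8 CPM in Beta-2-like cells, and VGF at 12.3 and 14.2 CPM beside 16 and 12.9 CPM. Over the Beta-1-like clusters together, there were 4 genes called higher and 8 lower of 36 tested, beside 5.35% and 12% of all genes, with medians of -0.13 for the members and -0.20 for all genes. Relative to that median 5 were higher and 6 lower, beside 7.79% and 7.36%, with PAM added and SNAP25 and SV2A no longer called. CADPS had 99.1 CPM in Beta-1-like and 339 CPM in Beta-2-like cells over both libraries, a log2 ratio of -1.77 (-1.81 to -1.74). SV2B had 4.33 and 31.0 CPM in the same order, a ratio of -2.84 (-2.98 to -2.70), and met the minimum by the Beta-2-like side alone. SLC17A6, SYT11 and PCSK2 were also lower in Beta-1-like cells, with ratios of -1.17, -1.23 and -0.95. Of 70 genes of the wider list 3 were higher (VAMP8, VAMP5 and SLC17A9) and 14 lower, led by RAB27B, RIMS3 and SLC17A8, beside 5.35% and 12% of all genes.

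The Beta-1-like clusters were not alike. The cluster of 3649 cells, whose leading genes were metallothioneins, had SCG2 at 179 and 165 CPM and VGF at 35.9 and 39.6 CPM. That of 2483 cells had less of both, but SCG5 at 3608 and 3725 CPM and PAM at 151 and 133 CPM, above the Beta-2-like, the other Beta-1-like and the IAPP-led cluster. Clusters of 6274 and 4174 cells were named beta cell progenitor-like. PCSK1 had 1022 and 1004 CPM in the first and 427 and 499 CPM in the second, and DOC2B 23.0 and 26.7 against 8.34 and 10.7 CPM. SLC17A6 went the other way, with 8.80 and 7.13 CPM against 59.7 and 46.2 CPM, as did PAM with 19.1 and 17.7 against 42.8 and 43.1 CPM. For these genes the cluster of 4174 cells lay between the other progenitor-like cluster and the beta-like class as a whole, although SLC17A6 was lower still, at 52.0 and 38.3 CPM, in the Beta-1-like cluster of 2483 cells. These genes were chosen after their values were seen, and SCG3, CADPS and RAB27A were among those that did not lie between.

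**Figure D4:**
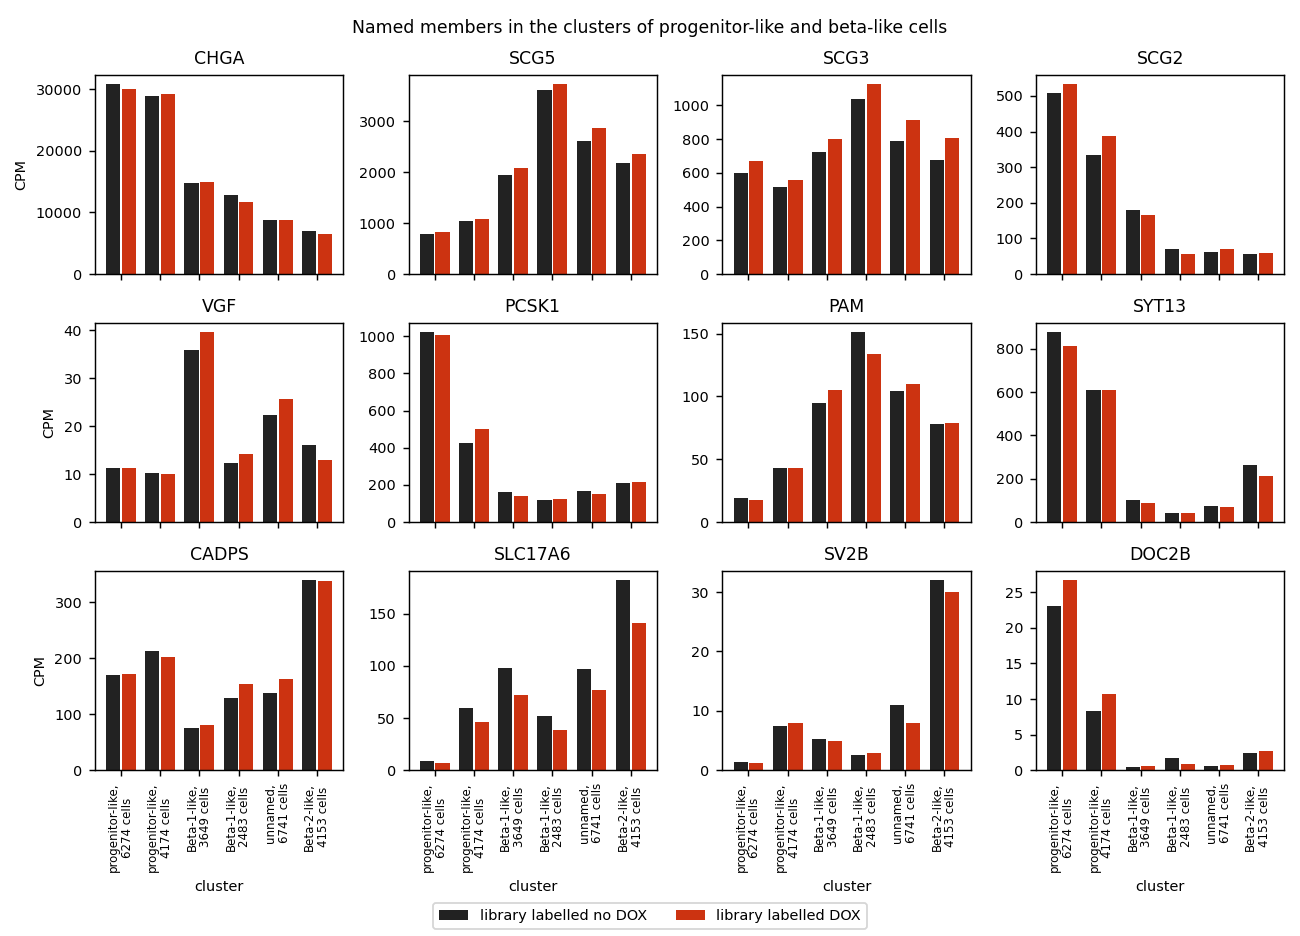
CPM (y axis) of 12 genes, chosen after their values were seen, in 6 of the finer clusters (x axis, with the number of cells), black for the library labelled no DOX and red for that labelled DOX. CHGA, SCG2, PCSK1 and SYT13 are highest in the progenitor-like clusters, SCG5 and PAM in the Beta-1-like cluster of 2483 cells, and CADPS, SLC17A6 and SV2B in the Beta-2-like cluster.

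The libraries labelled DOX and no DOX were compared last to set the list side by side with and without the drug. Over all cells none of 37 genes differed 1.5-fold in either direction, beside 0.201% of all genes higher and 0.402% lower, and none differed 1.2-fold, beside 1.94% and 3.17%. None of 70 genes of the wider list was called. The median log2 ratio of the members was -0.02 and that of all genes -0.01. The differences that stood out over all cells were small: SCGN 0.23 (0.23 to 0.24), SCG3 0.23 (0.22 to 0.24) and SCG5 0.18 (0.17 to 0.18) were higher with DOX, and SLC17A6 at -0.25 (-0.27 to -0.22), SYT13 at -0.19 and UNC13A at -0.18 were lower. These sums also move with the share of each class, and the beta-like class, in which SCGN was highest, was larger in the library labelled DOX. The part of class shares in the differences was not tested. Within beta-like cells SCGN had 1503 and 1749 CPM, and it was higher with DOX in each of the 5 classes with over 200 cells in each library.

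Within beta-like cells none of 37 genes was called, beside 0.203% of all genes called higher and 0.539% called lower. In the wider list RIMS4 was the gene of 67 called, at -0.61 (-0.75 to -0.47). SCG3 was 0.24 (0.22 to 0.25), SCGN 0.22 (0.21 to 0.23) and SCG5 0.19 (0.18 to 0.19) higher on the log2 scale. SLC17A6 at -0.47 (-0.50 to -0.43), SYT13 at -0.35 (-0.38 to -0.32) and SV2B at -0.30 (-0.39 to -0.20) were the genes of 37 that were 1.2-fold lower, beside 3.51% of all genes, and none was 1.2-fold higher, beside 2.04%. These 3 genes were higher in the Beta-2-like than in the Beta-1-like clusters, and the Beta-2-like cluster held 2040 and 2113 cells of the libraries, beside 7012 and 9900 cells in the beta-like class. In the Beta-2-like cluster by itself SLC17A6 had 182 and 141 CPM and SYT13 263 and 215 CPM, while SV2B was nearly level at 32.0 and 30.0 CPM. The part of the cluster shares in the differences was not tested. In progenitor-like cells SLC17A6 was again lower at -0.52 (-0.61 to -0.42) and SYT4 was lower at -0.29 (-0.38 to -0.19), while DOC2B was higher at 0.34 (0.22 to 0.46). One finer progenitor-like cluster, of 2982 and 3292 cells, had SLC17A6 at 8.80 and 7.13 CPM. The other, of 2258 and 1916 cells, had it at 59.7 and 46.2 CPM, and the part of this split in the difference was not tested. In alpha-like cells SLC17A6 had the opposite sign, at 0.24 (0.16 to 0.31).

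In alpha-like cells RAB27A was the 1 gene of 36 called, beside 0.492% of all genes called lower and 0.291% called higher, at -0.72 (-0.86 to -0.58), from 19.0 to 11.5 CPM. This call rested on which cells were counted as alpha-like. In the alpha-like cluster of the finer clustering, which held 9047 cells where the class held 9167, it was at 16.1 and 11.3 CPM, a log2 ratio of -0.51 that did not pass 1.5-fold, and the ratio was -0.55 with another clustering seed and -0.26 with doublets kept. In beta-like cells it was level at 0.04 (-0.02 to 0.09), and the difference between the classes was not tested. SYT5, a synaptotagmin of dense-core granules, was 0.50 (0.40 to 0.60) higher in alpha-like cells, and SYT13 was lower at -0.45 (-0.55 to -0.35). The classes come from the same pair of libraries and are not repeats of each other. SCG3 ranged from 0.13 in delta-like to 0.24 in beta-like cells. The CHGA difference ranged from -0.01 in progenitor-like to -0.29 (-0.31 to -0.28) in delta-like cells. Of the genes that make SNARE complexes, SNAP25, VAMP2 and STX1A stayed between -0.08 and 0.13 in the 4 endocrine classes.

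**Figure D5:**
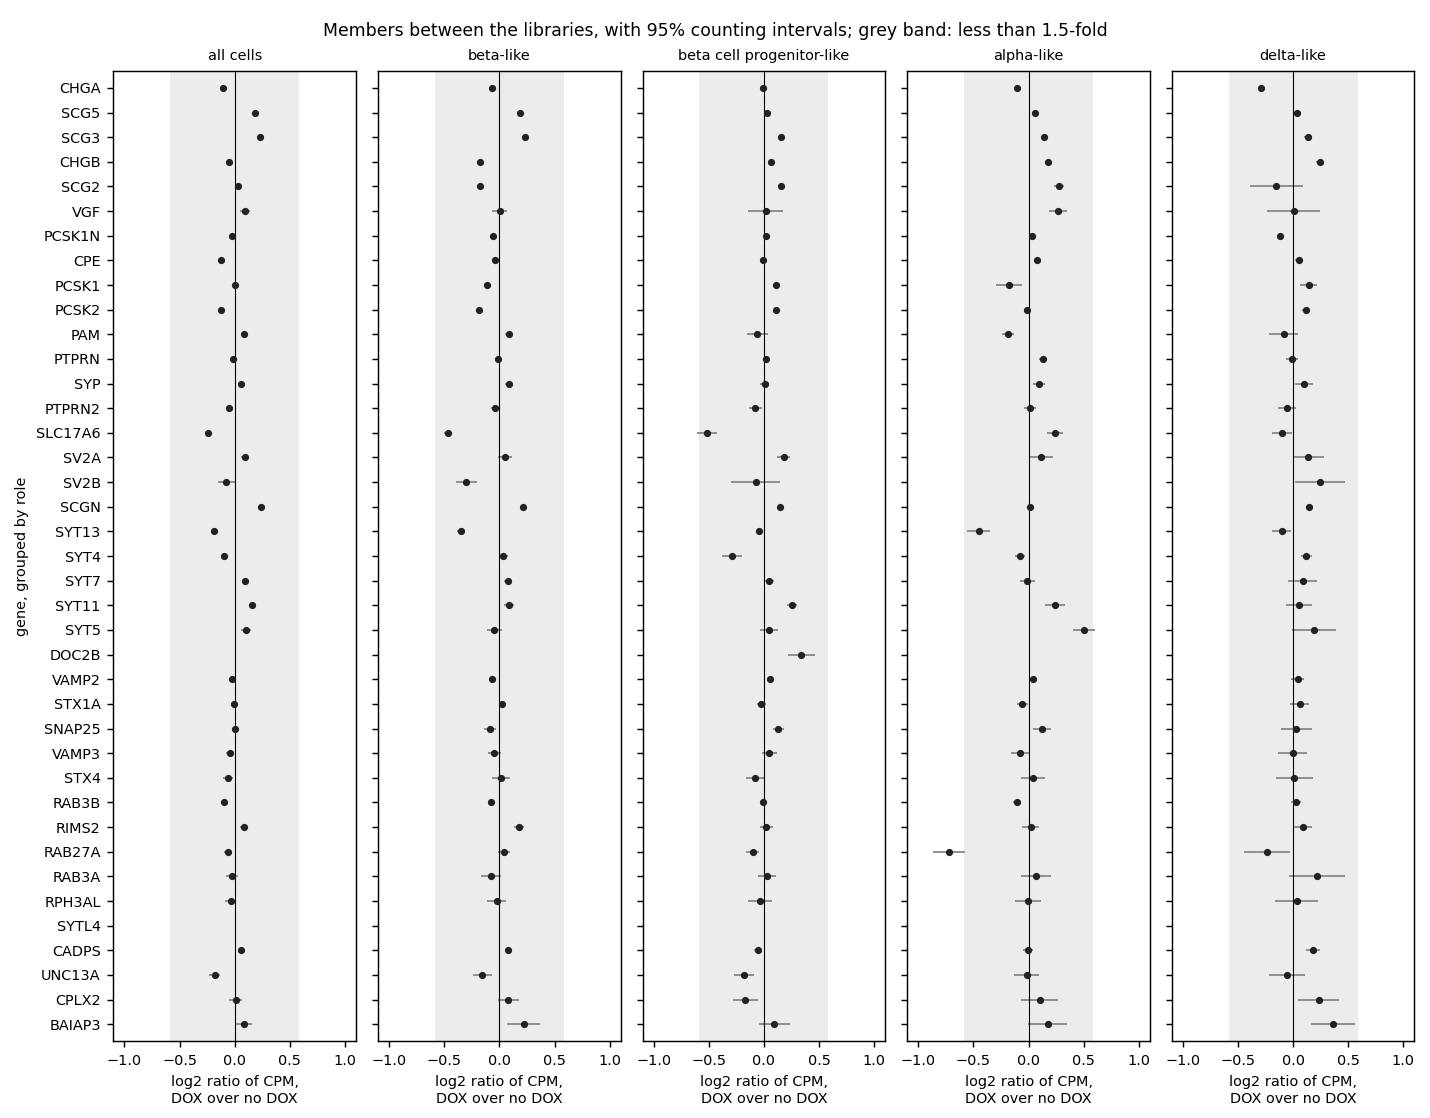
Log2 ratio of CPM with DOX to CPM without DOX (x axis) for each gene (y axis, grouped by role), over all cells and within the 4 endocrine classes. Points are ratios, bars are 95% intervals for counting error only, and grey marks less than 1.5-fold. RAB27A in alpha-like cells, at -0.72, is the point outside the grey band, and it moved inside the band, to -0.51, in the alpha-like cluster of the finer clustering. Genes under 5 CPM in both libraries are not drawn.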

How the data were processed

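The authors deposited raw UMI counts per gene and barcode for each library; the file headers name software 3.0.2, the submitters' processing notes name Cell Ranger 3.0 and GRCh38, and the methods name kallisto and bustools for counting. A minimum of 1000 UMIs per barcode was set, and Scrublet was used to call and remove doublets in each library. Following the methods, 50 components, a batch-balanced graph (3 neighbours per library) and Leiden clustering at resolution 0.2, and 0.5 for the finer clusters, were run in scanpy 1.11.5 and leidenalg 0.10.2 (Python 3.11.15), with the 39 genes and a wider list of 109 exocytosis genes left out. Names came from fixed markers, by rules set later. A class needed a mean log2 ratio of its markers over all other cells of at least 1, with at least 3 of them 2-fold higher. At least 1 had to be among the 10 leading genes of the cluster, and no other class could have more there. Differences from the study may come from rebuilt names. The members and lists were chosen with earlier results of these data known. UMIs were summed per class and library and divided by the class total. Intervals for levels and ratios were exact (Poisson and binomial), and shares of cells were computed after thinning. Calls needed 1.5-fold in the same direction in both libraries and 5 CPM in one group. Genes named in the text were the leading genes of each role and those with the highest and lowest called ratios, and others were chosen after their values were seen. With 1 library per condition, nothing was tested. Alternatives changed the filters, clustering, doublets, scaling, minimum and fold. Gene positions came from GENCODE 44.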

Additional observations from a re-analysis of the deposited data

How the results depend on the processing

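No paired analysis was possible because each condition had 1 library, which also left no replicate to leave out. Ratios were recomputed for the 29 genes named by the rule, in the class comparisons other than Beta-1-like over Beta-2-like and between the libraries over all cells. Of 2407 such ratios under 18 alternative settings, 2287 kept their call or lack of one, 85 lost a call, 35 gained one, and no called ratio changed sign. Ratios that were not called did change sign. Between beta-like and progenitor-like cells, centring moved PCSK1N from -0.25 to 0.34 and CPE from -0.31 to 0.28. With a minimum of 2000 UMIs, CADPS in alpha-like over beta-like cells went from -0.26 to 0.35, and in delta-like over beta-like cells SYT13 went from -0.52 to 0.13 and SV2B from -0.22 to 0.80. That minimum also ended the call of SV2B in beta-like over progenitor-like cells, from 1.22 to 0.39. DOX over no DOX gave 0 calls in either direction over all cells under every setting run. Within the endocrine classes, rerun after the data were seen, RAB27A was the 1 gene called in alpha-like cells, and the count went to 0 with doublets kept, with another Leiden seed, with Leiden 0.5, with a minimum of 20 CPM and at 2-fold. At 1.2-fold, 3 genes were higher and 2 lower in alpha-like cells, 1 higher and 2 lower in progenitor-like, 1 higher and 1 lower in delta-like and 3 lower in beta-like cells. As shares of genes tested, the higher ones exceeded all genes in alpha-like cells but not in progenitor-like, delta-like or beta-like cells. The lower ones exceeded all genes in alpha-like, progenitor-like and beta-like cells and were level with them in delta-like cells. With so few genes, no excess is read from these counts. Other counts of called genes moved by over 1.5 times as follows. They are given without the shares of all genes and are not read against a background. With a minimum of 2000 UMIs, 4 genes were higher in alpha-like than in beta-like cells, where the main count was 7, and a cluster of 4656 cells took no name. Centring on the median left 13 genes lower in beta-like than in progenitor-like cells in place of 20. A minimum of 1 CPM gave 2 genes lower in endocrine than in duct-like cells in place of 1. At 1.2-fold, 13 genes were higher in alpha-like cells and 8 higher and 18 lower in delta-like cells, against beta-like cells, and at 2-fold 1 was higher and 3 were lower in alpha-like and 3 higher in delta-like cells. The mean of log-normalized values gave 19 higher and 0 lower against duct-like cells, 3 higher and 8 lower in beta-like against progenitor-like cells, 2 higher and 1 lower in alpha-like and 4 lower in delta-like cells. Against duct-like cells the values were lower with that mean, VGF going from 3.36 to 0.18 and UNC13A from 3.72 to 0.21. That mean is taken over cells and is not a ratio of summed UMIs, so its values are not on the scale of the main ratios. Ratios to duct-like cells were also lower with doublets kept, PCSK1 going from 3.40 to 0.77 and SYT13 from 3.19 to 0.61. Keeping doublets also moved PCSK1 in alpha-like over beta-like cells from -2.97 to -1.87. Of 116 shares of cells with a UMI, 91 left their counting interval when cells were thinned to 2500 UMIs, PCSK1 in beta-like cells going from 47.2% and 46.9% to 29.9% and 29.5%, and 107 did so with no thinning. The cause of these changes was not tested.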
